A study of Caenorhabditis elegans with 6 samples.

Results

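The genes examined here form, switch on and equip the sperm of the nematode Caenorhabditis elegans. They were chosen by name: spe-44, spe-6, gsp-3, gsp-4, spe-4, snf-10, spe-9, spe-38, spe-41 and spe-11. Of these 10 symbols, 9 matched a transcript record in the count tables through the RefSeq annotation, among 39875 named genes with a record. No record carried the name gsp-4, which was not analysed here. For spe-9 there were 2 records, one of which had 0 counts in all libraries, so the other is used throughout.

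Whole starved first-stage (L1) larvae were compared between 2 strains, with 3 libraries each. The spr-5; met-2 strain carries the by101 allele of spr-5, a histone H3 lysine demethylase gene, on chromosome I and the n4256 allele of met-2, a histone H3 lysine methyltransferase gene, on chromosome III. It was set against the wild-type strain N2. Both strains were kept on HT115 bacteria, and their larvae hatched into buffer without food before RNA was taken from whole animals, pooled at about 1000 to 1500 per sample. The column headers of all 6 libraries also carry the name L4440, that of a vector used for RNAi by feeding, which the labels do not mention. Nothing in the labels tells separate cultures from repeat preparations, and the p-values cover the spread among these libraries alone.

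Sperm of C. elegans arise in the germline after meiosis. Spermatocytes build organelles that carry the major sperm protein, the round spermatids are later activated to crawling sperm by signals acting on proteins already present, and surface proteins then allow fusion with the egg. In wild-type hermaphrodites this happens late in larval life, whereas the newly hatched larva holds only a pair of undivided primordial germ cells, so transcripts of sperm genes are normally not abundant at this stage.

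Of the 9 measured sperm genes, 7 passed the count filter and were tested, of which 3 rose in spr-5; met-2 larvae and 0 fell. The risers were spe-6, a casein kinase gene, spe-41, which encodes a calcium channel of the sperm surface, and snf-10, a transporter gene used in sperm activation, with ratios of depth-scaled counts of 15.5, 20.8 and 14.7. Among the rest, spe-4 was the most abundant and stood at nearly the same level in both groups, and gsp-3 and spe-38 had almost no reads in any library. Across all 14557 records tested, 14.3% rose and 11.7% fell by the rule used here (quasi-likelihood test of edgeR, Benjamini-Hochberg adjusted p under 0.05). The 0 falling genes were also 0 at an unadjusted p below 0.05 and with DESeq2 and limma voom. In whole-animal RNA, more cells of a type and more RNA per cell cannot be told apart.

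The libraries held 17062557 to 25368364 counts in spr-5; met-2 and 20010959 to 22014739 counts in N2. The level of spr-5 was 129, 116 and 123 CPM in the libraries of spr-5; met-2, against 66.2, 47.7 and 47.5 CPM in N2, and that of met-2 was 87.3, 79.8 and 80.9 CPM in spr-5; met-2, against 119, 101 and 114 CPM in N2. Here CPM is the count scaled by library size and a composition factor. Thus spr-5 was higher in spr-5; met-2 (1.19 ± 0.16, log2, SE, edgeR adjusted p = 0.00132) and met-2 lower (-0.43 ± 0.11, edgeR adjusted p = 0.029). The labels do not say what either allele changes in the transcript, and these counts were not taken as a check of the strains. Yolk protein genes, which are markers of adult hermaphrodites, separated 1 library of each group from the rest: the 4 with a record summed to 14.7 CPM in spr-5; met-2 replicate 2 and 72.4 CPM in N2 replicate 3, against 0.384 to 1.39 CPM in the other 4 libraries. Of these genes vit-6 had 0 counts in all libraries. The eggshell genes perm-2 and perm-4 were high in the same libraries, at 1.49 and 1.54 CPM in spr-5; met-2 replicate 2 and 8.5 and 9.85 CPM in N2 replicate 3. Muscle genes, which mark somatic tissue but not a stage, were abundant in both groups. The myosin gene unc-54 stood at 9190 ± 801 CPM in spr-5; met-2 and 9660 ± 3070 CPM in N2 (SD, n = 3).

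Expression in spermatocytes depends on spe-44, which encodes a DNA-binding regulator that switches on many sperm genes. Its record had 45, 58 and 71 counts in spr-5; met-2 (replicates in numerical order throughout), against 37, 31 and 31 counts in N2. These were 2.32, 3.20 and 2.52 CPM in spr-5; met-2, against 2.03, 1.53 and 1.55 CPM in N2. Each mutant library lay above each N2 library, but the distance between the nearest libraries of the groups was smaller than the range within either group. The log2 fold change was 0.65 ± 0.27 (SE), and it missed the threshold (edgeR adjusted p = 0.116). Scaling by library size only gave 0.88 and a call (edgeR adjusted p = 0.043), but under it the median over all tested records was 0.21, beside -0.01 with the composition factor.

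The kinase gene spe-6 is needed for the major sperm protein to assemble in spermatocytes, and its product later holds spermatids inactive. Its record had 291, 328 and 496 counts in spr-5; met-2, against 14, 20 and 30 counts in N2. Scaled, spe-6 stood at 15, 18.1 and 17.6 CPM in spr-5; met-2, against 0.769, 0.990 and 1.5 CPM in N2. All mutant libraries were thus far above all N2 libraries, and spe-6 was present, at a low level, in every N2 library. The log2 fold change was 3.95 ± 0.27 (SE, edgeR adjusted p = 5.71e-05). Of the 2075 rising records, 299 had a larger log2 fold change.

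Within each group the highest spe-6 value was that of the library rich in yolk transcripts. The rise was as large without both of these libraries, at 4.2 ± 0.29 on the log2 scale (SE, edgeR adjusted p = 0.00127). The uncharacterised gene Y66D12A.19, which lies 150 bases from spe-6 on the same strand in the WBcel235 annotation and shares no exonic base with it, also rose, with 541, 362 and 548 counts in spr-5; met-2 against 108, 56 and 53 counts in N2 (log2 fold change 2.57 ± 0.34, SE, edgeR adjusted p = 0.00144). At 185 bases, on the opposite strand, Y66D12A.21 did not pass, at 0.30 ± 0.14 (log2 fold change, SE, edgeR adjusted p = 0.152). The part of Y66D12A.19 in the spe-6 counts was not tested.

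The phosphatase gene gsp-3 encodes, with its close paralog gsp-4, a sperm form of protein phosphatase 1 that acts in sperm meiosis and movement. Its record had 4, 1 and 1 counts in spr-5; met-2 and 0, 0 and 1 counts in N2, too few to pass the count filter. The groups overlapped, and the ratio of 6 counts in spr-5; met-2 to 1 count in N2, scaled for depth, was 5.34 with a 95% exact conditional interval of 0.648 to 246. A difference was therefore not detectable at this depth. The sequences of gsp-3 and gsp-4 are nearly identical, the treatment of reads that fit both is not given in the sources used here, and a loss of such reads was not tested. The broadly expressed phosphatase 1 genes gsp-1 and gsp-2 stood at 189 ± 6.57 and 588 ± 55.5 CPM in spr-5; met-2, against 166 ± 24.6 and 583 ± 122 CPM in N2 (SD, n = 3). Neither passed the test (edgeR adjusted p = 0.342 for gsp-1 and 0.972 for gsp-2).

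The presenilin-family protein encoded by spe-4 sits in the organelles that carry the major sperm protein, where it is needed for spermatids to form. Its record had 214, 175 and 351 counts in spr-5; met-2, against 227, 254 and 186 counts in N2. The corresponding values were 11, 9.64 and 12.5 CPM in spr-5; met-2, against 12.5, 12.6 and 9.30 CPM in N2. The groups overlapped fully, and the difference of -0.05 ± 0.19 (log2, SE) missed the threshold (edgeR adjusted p = 0.883). Of the counts of the 9 genes, spe-4 held 27.1% to 33.9% in spr-5; met-2 libraries, against 61.0% to 72.1% in N2 libraries. The share of spe-6 was 46% to 50.9% in spr-5; met-2, against 4.44% to 9.84% in N2. The nearest annotated protein-coding gene, lars-2, lies 198 bases away on the opposite strand and shares no exonic base with spe-4.

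Activation of spermatids by male seminal fluid uses snf-10, which encodes a membrane transporter of the solute carrier 6 family. Its record had 22, 17 and 27 counts in spr-5; met-2, against 1, 1 and 2 counts in N2. It stood at 1.14, 0.937 and 0.960 CPM in spr-5; met-2, against 0.0549, 0.0495 and 0.1 CPM in N2. The mutant libraries lay close together and far above N2, where 1 or 2 reads made up each value. The log2 fold change was 3.77 ± 0.46 (SE, edgeR adjusted p = 0.000941), and the ratio of scaled counts was 14.7 with a 95% exact conditional interval of 5.47 to 55.5, which covers counting error only. Since N2 was under the count filter, snf-10 entered the test only through spr-5; met-2. It lies within the span of set-22 on the opposite strand, with no shared exonic base, and set-22 was not analysed here.

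**Figure D1:**
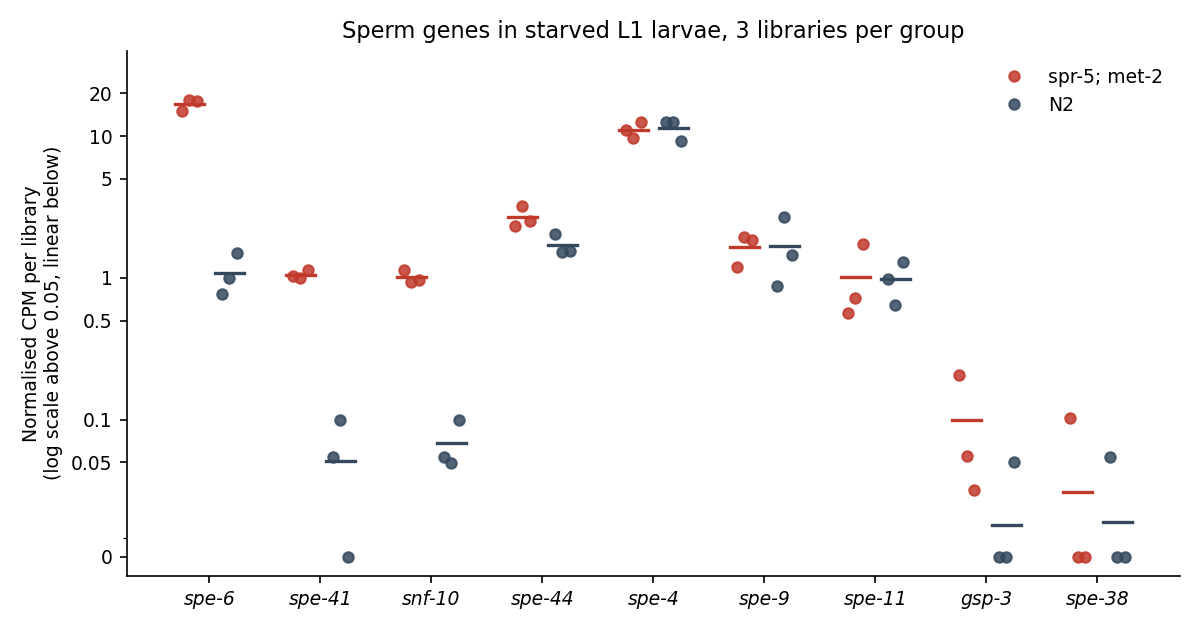
Normalised CPM of the 9 measured sperm genes in each library, with the mean of 3 libraries as a line, for spr-5; met-2 (left of each pair) and N2 (right); the axis is logarithmic above 0.05 CPM and linear below. The genes spe-6, spe-41, snf-10 and spe-44 show no overlap between groups, spe-4, spe-9 and spe-11 overlap, and gsp-3 and spe-38 are near 0.

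Sperm need several surface proteins to fuse with the egg, and 3 of the genes encode such proteins. The channel gene spe-41, whose product lets calcium into the sperm after activation, had 20, 18 and 32 counts in spr-5; met-2, against 1, 2 and 0 counts in N2. It stood at 1.03, 0.992 and 1.14 CPM in spr-5; met-2, against 0.0549, 0.0990 and 0 CPM in N2. The mutant libraries differed little among themselves and none came near N2. The log2 fold change was 4.21 ± 0.61 (SE, edgeR adjusted p = 0.00208). The ratio of 70 counts in spr-5; met-2 to 3 counts in N2, scaled for depth, was 20.8 with a 95% exact conditional interval of 6.82 to 103. Without N2 replicate 2, which held 2 of the 3 N2 counts, the log2 fold change was 5.04, and without N2 replicate 3, which held none, it was 3.64. Like snf-10, spe-41 passed the count filter only through spr-5; met-2.

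Neither spe-9 nor spe-38, the other surface protein genes, was called. The gene spe-9, which encodes a sperm transmembrane protein with EGF repeats that is needed to fertilize the egg, had 23, 35 and 52 counts in spr-5; met-2, against 16, 54 and 29 counts in N2. At 1.65 ± 0.407 CPM in spr-5; met-2 and 1.67 ± 0.916 CPM in N2 (SD, n = 3) the groups overlapped, and the difference was -0.01 ± 0.43 (log2, SE, edgeR adjusted p = 0.988). The spread in N2 was wide, from 0.878 CPM in replicate 1 to 2.67 CPM in replicate 2. The gene C17D12.5 on the opposite strand shares 8 exonic bases with spe-9, and without a stated strand setting its reads cannot be told apart there.

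The product of spe-38, a small protein with 4 predicted membrane spans, brings SPE-41 to the sperm surface and is needed to fertilize the egg. Its record had 2, 0 and 0 counts in spr-5; met-2 and 1, 0 and 0 counts in N2, under the count filter. The ratio was 1.78 with a 95% exact conditional interval of 0.0927 to 105, so no difference was detectable at this depth. Of the 655 exonic bases of spe-38, 58 are shared with impt-1 on the same strand. The counts of impt-1 were 146 to 272 in spr-5; met-2 and 162 to 259 in N2, while 4 of 6 libraries had 0 counts for spe-38.

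The factor encoded by spe-11 is carried into the egg by the sperm and acts in the embryo. Its record had 11, 13 and 49 counts in spr-5; met-2, against 18, 13 and 26 counts in N2. It stood at 0.568, 0.716 and 1.74 CPM in spr-5; met-2, against 0.988, 0.643 and 1.3 CPM in N2. Replicate 3 was the highest library of both groups, and the groups overlapped. The log2 fold change of 0.08 ± 0.50 (SE) did not pass (edgeR adjusted p = 0.923), and it was -0.60 without spr-5; met-2 replicate 3.

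The genes thus held 3 that were called, spe-44 with separate groups but no call, and others whose groups overlapped. Of the 7 that passed the count filter, 4 had all 3 mutant libraries above all N2 libraries, beside 22.3% of all tested records. Of these 4, snf-10 and spe-41 were in the test only through their counts in the mutant and so had to be separate, and nothing is read from the count. Without spr-5; met-2 replicate 2 and N2 replicate 3, the libraries rich in yolk transcripts, the same 3 genes still rose, beside 1219 of 14749 tested records. In that fit the rise was 4.18 ± 0.64 for snf-10 (log2, SE, edgeR adjusted p = 0.0144) and 3.7 ± 0.61 for spe-41 (edgeR adjusted p = 0.018). Summed over the 9 genes, the libraries held 32.6, 35.5 and 38.4 CPM in spr-5; met-2, against 17.3, 18.6 and 15.3 CPM in N2. The replicates of the mutant were close for each riser, with SDs of 1.65 CPM for spe-6, 0.109 CPM for snf-10 and 0.0751 CPM for spe-41.

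**Figure D2:**
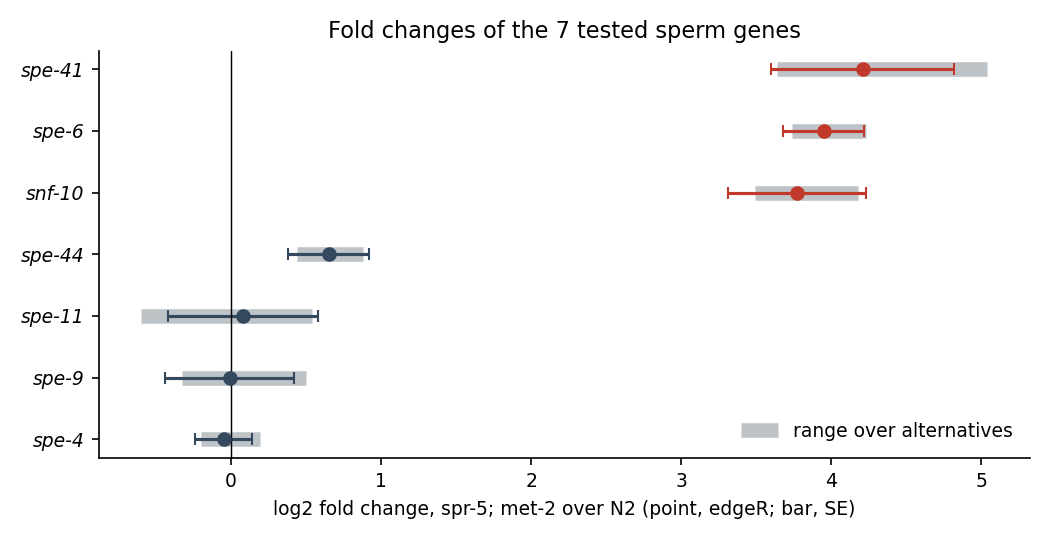
Log2 fold change of spr-5; met-2 over N2 for the 7 sperm genes in the test (point, red where called; bar, SE), with the range over the alternative settings in grey. The values of spe-41, spe-6 and snf-10 stay at 3.49 or above under all settings that could be fitted, while spe-4, spe-9 and spe-11 span 0.

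Compared per length of transcript, the order of the genes differed between groups. In spr-5; met-2 the level was 13.3 ± 1.3 CPM per kilobase for spe-6 and 6.95 ± 0.891 for spe-4, which did not overlap. Then came spe-44 at 1.64 ± 0.28, spe-11 at 1.03 ± 0.654 and spe-9 at 0.818 ± 0.201 CPM per kilobase, of which spe-11 overlapped both others in its spread, and snf-10 at 0.485 ± 0.0523 and spe-41 at 0.386 ± 0.0275 CPM per kilobase (SD, n = 3). The 2 scarce genes gsp-3 and spe-38 came last, at 0.0888 ± 0.0839 and 0.0526 ± 0.091 CPM per kilobase. In N2 spe-4 led at 7.19 ± 1.17 CPM per kilobase, followed by spe-44 at 1.05 ± 0.173, spe-11 at 1.0 ± 0.337, spe-6 at 0.856 ± 0.296 and spe-9 at 0.824 ± 0.453, levels that did not differ beyond their spread. The other 4 stood at 0.0327 CPM per kilobase or less in N2. The rise therefore brought spe-6 to the top of the list, and left snf-10 and spe-41 below spe-4 in level although their fold changes were of like size to that of spe-6.

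By chromosome, the genes on chromosome I were spe-4, spe-9, spe-11, spe-38 and gsp-3, none of which was called and 3 of which were tested. Both genes on chromosome III, spe-6 and spe-41, rose, as did snf-10 on chromosome V, and spe-44 is on chromosome IV. None of the genes lies on the X chromosome. With so few genes this is a description only.

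**Figure D3:**
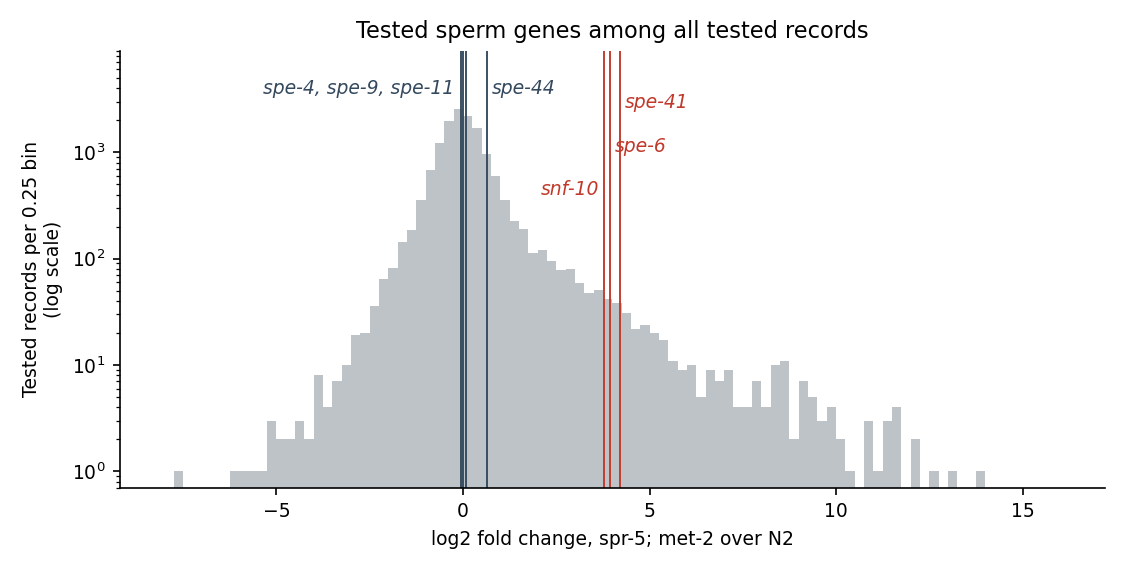
Distribution of log2 fold changes, spr-5; met-2 over N2, of the 14557 tested records in bins of 0.25 (log count axis), with lines for the 7 tested sperm genes. The genes spe-41, spe-6 and snf-10 lie in the upper tail, and spe-4, spe-9 and spe-11 at the peak.

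Other genes of sperm formation, activation and fertilization were grouped in lists for comparison. Of 65 such genes, 61 had a record, 48 of them had at least 1 count and 20 passed the count filter. Among these 20, 8 rose and 1 fell, with a median log2 fold change of 0.72, beside -0.01 over all tested records, of which 14.3% rose and 11.7% fell. Without both libraries rich in yolk transcripts 6 rose and 0 fell. Calls were fewer over all records too: of 14749 tested in that fit, 1219 rose and 556 fell. Since scarce genes pass the filter more easily when they rise, the share among the 20 is not that of sperm genes as a whole.

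In the list of sperm formation, 5 of 11 tested genes rose and 0 fell, beside 14.3% rising and 11.7% falling over all tested records. Of the 11, 0 fell also at an unadjusted p below 0.05 and with DESeq2 and limma voom, though scarce genes could hardly be called as falling. The translational regulator gene cpb-1, needed for spermatocytes to enter meiotic division, had 196, 204 and 289 counts in spr-5; met-2 against 21, 13 and 13 counts in N2 (log2 fold change 3.69 ± 0.28, SE, edgeR adjusted p = 8.99e-05). The sperm-delivered toxin gene peel-1 had 29, 33 and 52 counts in spr-5; met-2 against 2, 4 and 5 counts in N2 (3.16 ± 0.39, SE, edgeR adjusted p = 0.000964). Like spe-6, cpb-1 was low in N2 and well above it in each mutant library. All N2 counts of peel-1 were under the count filter. Like snf-10 and spe-41, peel-1 was thus in the test only through spr-5; met-2 and had to be separate. The gene spe-18, which like spe-6 acts in the assembly of major sperm protein into fibrous bodies, had 82, 56 and 112 counts in spr-5; met-2 against 14, 5 and 6 counts in N2 (3.10 ± 0.43, SE, edgeR adjusted p = 0.00176). The myosin gene spe-15 had 612, 423 and 677 counts in spr-5; met-2 against 173, 114 and 74 counts in N2 (2.07 ± 0.33, SE, edgeR adjusted p = 0.00338).

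In the list of sperm activation, 3 of 5 tested genes rose and 1 fell, beside 14.3% rising and 11.7% falling over all tested records. The gene spe-47, which acts in the timing of spermatid activation, had 113, 126 and 203 counts in spr-5; met-2 against 18, 19 and 42 counts in N2 (log2 fold change 2.30 ± 0.35, SE, edgeR adjusted p = 0.00247). The zinc transporter gene zipt-7.1, used in activation, had 179, 211 and 310 counts in spr-5; met-2 against 82, 100 and 94 counts in N2 (1.17 ± 0.18, SE, edgeR adjusted p = 0.00314). Each mutant library lay above each N2 library for both genes, as was so for 22.3% of all tested records. The membrane protein gene spe-19 rose by 1.74 ± 0.43 (log2, SE, edgeR adjusted p = 0.0216). Its N2 counts of 9, 6 and 6 were all under the count filter, against 17, 18 and 49 counts in the mutant. Like peel-1, spe-19 was thus in the test only through the mutant and had to be separate. It did not pass without replicate 3 of the mutant (edgeR adjusted p = 0.117), without N2 replicate 2 (0.0792) or without N2 replicate 3 (0.0709). The gene that fell was swm-1, a secreted inhibitor that holds back activation in males and is made outside the germline. It was at -0.89 ± 0.22 (log2 fold change, SE, edgeR adjusted p = 0.0201), with no call without spr-5; met-2 replicate 1 (0.0561) or replicate 3 (0.0782), without N2 replicate 2 (0.0689) or replicate 3 (0.0541), or with library size only (0.0904).

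The genes most abundant in sperm themselves were close to absent. The 25 major sperm protein genes with a record, which encode the cytoskeletal protein that drives sperm crawling, held 50 counts in spr-5; met-2 and 66 counts in N2 in all, and 12 of them had none. Per library these sums were 0.675 to 0.937 CPM in spr-5; met-2 and 0.75 to 1.7 CPM in N2, which overlap. None of them passed the count filter, and the one with the most counts, msp-31, had 3, 4 and 5 counts in spr-5; met-2 against 17, 12 and 5 counts in N2. These genes are near-identical copies, and a loss of reads that fit several of them was not tested. Of 25 genes for other small abundant sperm proteins, 2 passed the filter and neither was called by edgeR, DESeq2 or limma voom, nor passed an unadjusted p below 0.05. The one with the most counts, ssq-4, had 17, 15 and 22 counts in spr-5; met-2 against 52, 15 and 18 counts in N2. Of the other fertilization genes, 2 of 5 with a record were tested and neither was called by edgeR, DESeq2 or limma voom, with 1 higher at an unadjusted p below 0.05. The most abundant, spe-51, a secreted sperm protein gene, had 76, 49 and 109 counts in spr-5; met-2 against 44, 33 and 40 counts in N2 (log2 fold change 0.80 ± 0.28, SE, edgeR adjusted p = 0.0687).

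**Figure D4:**
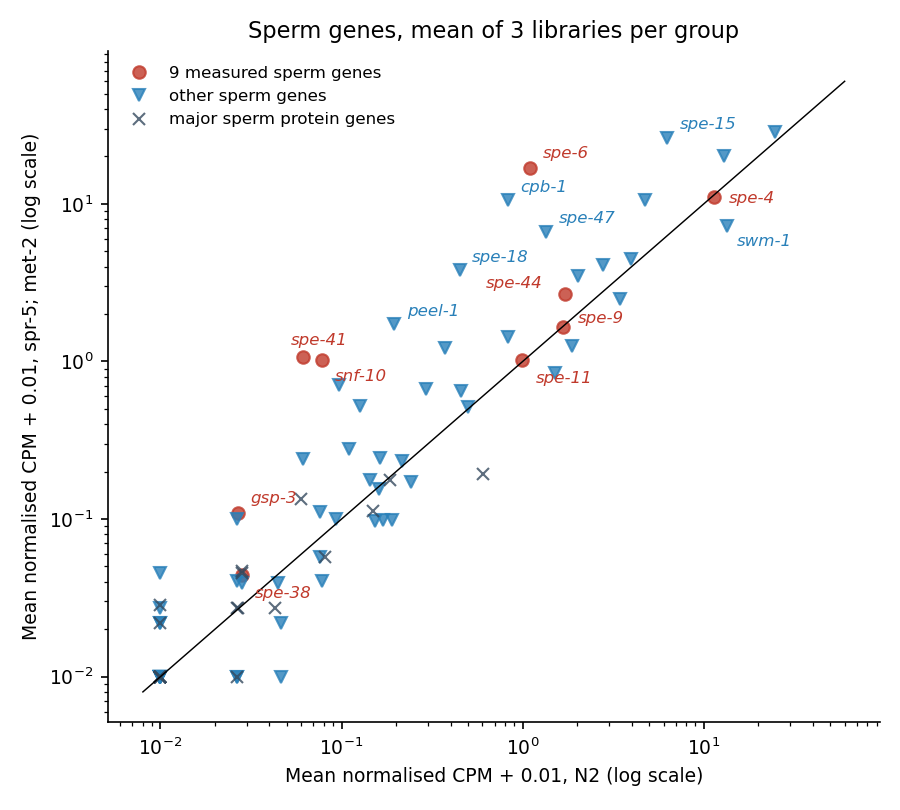
Mean normalised CPM over 3 libraries in spr-5; met-2 (vertical) against N2 (horizontal), both with 0.01 added and on log axes, for the 9 measured sperm genes, 61 other sperm genes and 25 major sperm protein genes; the line marks equal levels. The genes spe-6, spe-41 and snf-10 lie far above the line, as do cpb-1, peel-1 and spe-18, while spe-4, spe-9 and spe-11 lie on it and the major sperm protein genes stay near the lower left.

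Markers of other germ cells moved with the risers. Of 8 tested germ cell markers 7 rose and 0 fell, and of 10 tested oocyte markers 7 rose and 0 fell (8 and 8 rose with the replicate number as a block). Over all tested records 14.3% rose and 11.7% fell without the block. With the block the counts over all records were also larger, at 2755 rising and 2374 falling, against 2075 and 1698 without. Of these markers 0 fell also at an unadjusted p below 0.05, in DESeq2 and in limma voom. Among oocyte markers under the count filter, perm-2 and perm-4 had lower means in spr-5; met-2 (0.549 and 0.514 CPM, against 2.94 and 3.34 CPM in N2). These means came mostly from the libraries rich in yolk transcripts, and the groups overlapped for both genes. The mean of mbk-2 was higher (0.667 against 0.321 CPM). Summed over the 10 germ cell markers with a record, the level was 1390, 1420 and 1330 CPM in spr-5; met-2, against 125, 83.5 and 93.6 CPM in N2. The 13 oocyte markers with a record summed to 444, 372 and 377 CPM in spr-5; met-2, against 46.2, 33 and 91.5 CPM in N2, the highest N2 value being that of the library rich in yolk transcripts. Both sums were thus separate between groups. All oocyte markers with a record had counts, and of the germ cell markers pgl-1 was at 0 in all libraries. The eggshell gene cbd-1 rose by 3.23 ± 0.30 (log2, SE, edgeR adjusted p = 0.000239), the Y-box gene cey-2 by 3.97 ± 0.39, the Pumilio-family gene puf-11 by 2.34 ± 0.32 and the chitin synthase gene chs-1 by 1.74 ± 0.25. Among germ cell markers the Piwi gene prg-1 rose by 4.52 ± 0.14, the meiotic axis genes htp-3 and htp-1 by 3.10 ± 0.14 and 3.74 ± 0.19 and the helicase gene glh-1 by 3.66 ± 0.22. The part that a different number or kind of germ cells plays in the rise of spe-6, spe-41 and snf-10 was not tested.

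**Figure D5:**
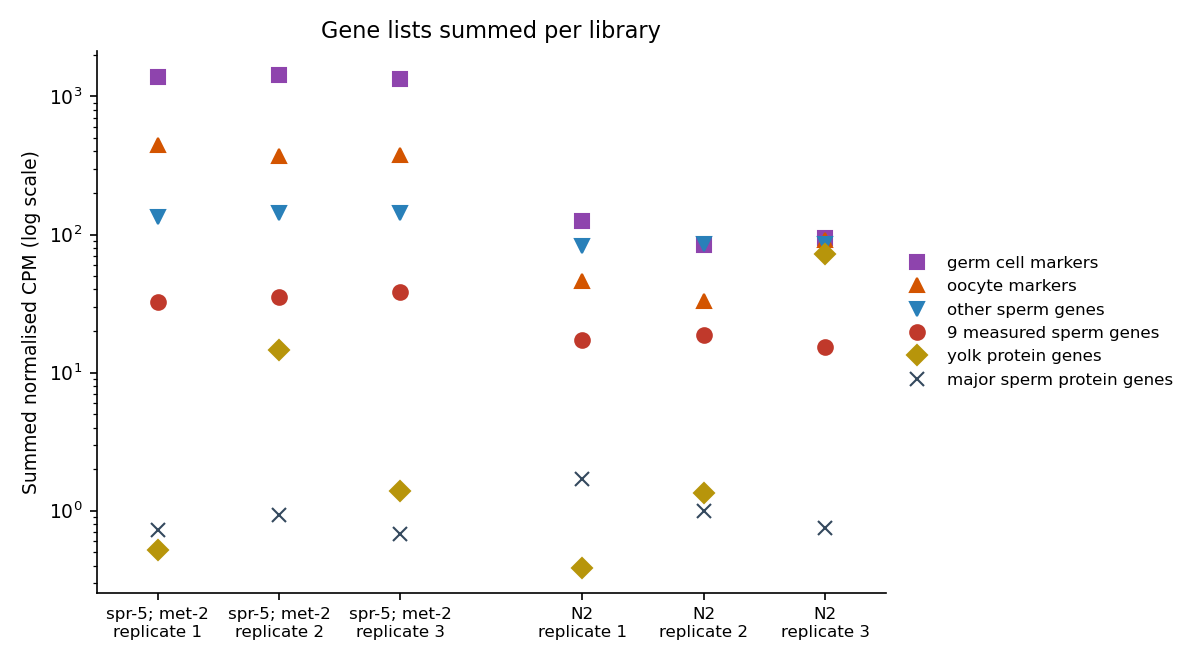
Summed normalised CPM per library (log axis) of the 9 measured sperm genes, the other sperm genes, germ cell and oocyte markers, yolk protein genes and major sperm protein genes, with the 3 spr-5; met-2 libraries left of the 3 N2 libraries. Germ cell and oocyte markers are higher in each mutant library. Both sums of sperm genes are also higher in each mutant library, that of the 9 measured genes mostly through spe-6. Major sperm protein genes overlap, and yolk genes stand out in spr-5; met-2 replicate 2 and N2 replicate 3.

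The authors' deposited table, made with their own comparison, gave the same sign as edgeR for 100% of the records called here. Both rest on the same libraries, so this is no independent check. In the authors' deposited table the log2 difference of spe-6 was 3.83 ± 0.28 (SE, adjusted p = 2.21e-39), and spe-41 and snf-10 had smaller values than in edgeR, at 3.21 ± 0.65 and 2.97 ± 0.64 (SE). The authors' deposited table likewise did not call spe-44 (adjusted p = 0.178), and it gave no adjusted p for gsp-3 and spe-38.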

How the data were processed

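Whole-animal RNA of 6 libraries was analysed, with groups and replicate numbers taken from the titles. The deposited tables hold raw counts per RefSeq transcript record. Per the file headers, reads were aligned with HISAT2. The build ce10 is named per the submitters' processing notes, as are DESeq2 2.11.40.2, featureCounts, Trimmomatic and FastQC. Strand setting and handling of multi-mapping reads are unknown. The comparison the authors deposited gives, per the file headers, a base mean (a signal scaled by size factors), a log2 fold change, its standard error and a Wald statistic (scores of no fixed range) and p-values.

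Each table held 50832 records. Gene names, for 46074 of them, were taken from RefSeq (WBcel235), and exon lengths and overlaps from Ensembl's WBcel235 annotation. As that build is not the authors', no coordinates are given. Records passing filterByExpr (minimum count 10, minimum total 15) numbered 14557. They were scaled by TMM and tested with edgeR 4.0.16 (R 4.3.3, quasi-likelihood, two-sided, Benjamini-Hochberg adjustment over all tested records, threshold 0.05). The SE is the size of the log2 fold change divided by the square root of F. Ratios carry 95% exact conditional intervals for counting error alone: without molecular identifiers, reads may be copies of one molecule.

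The 10 genes and all lists were chosen with earlier results of these data known. All 10 are described. From each other list up to 4 called genes with the smallest adjusted p are named, or the most abundant where none was called, and gsp-1 and gsp-2 always. In lists the record with the most counts stands for a gene. Neighbours within 300 bases were chosen by position among protein-coding genes only. The fit was tested on simulated data. Same-numbered libraries deviated together from their group means (r = 0.456, 0.356 and 0.186 for replicates 1, 2 and 3), so the numbers were taken to pair the libraries. The main test did not use this pairing, and the replicate block did. Alternatives were other scalings and filters, DESeq2 1.42.0, limma voom 3.58.1, the replicate block, each library left out, stricter thresholds and records summed per gene. Leaving out 2 libraries together, and running other named genes, lists and non-overlap through these settings, were added after the data were seen.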

Additional observations from a re-analysis of the deposited data

How the results depend on the processing

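The counts of 3 rising and 0 falling sperm genes were the same under DESeq2, limma voom, the replicate block (3 and 0), DESeq2 size factors, no count filter, records summed per gene, an adjusted p below 0.01, a 2-fold minimum and each library left out. With library size only 4 rose (spe-44 added, 0.88), and with 1 CPM in 3 libraries 2, because snf-10 was filtered out. Over all fits spe-6 ranged from 3.74 to 4.23, snf-10 from 3.49 to 4.18 and spe-41 from 3.64 to 5.04 on the log2 scale. The replicate block changed no call among these genes. With it 9 other sperm genes, 8 oocyte markers and 8 germ cell markers rose, against 8, 7 and 7 without. The rising count over all records also grew with it, from 2075 to 2755.

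Uncalled values turned sign near 0: spe-4 to 0.19 with library size only and 0.02 to 0.04 with left-out libraries (-0.20 at the lowest), spe-9 to 0.19 with library size only, 0.01 without a count filter, 0.09 with limma voom, 0.07 with the replicate block and, over left-out libraries, between -0.33 and 0.50, spe-11 to -0.02 with the replicate block and between -0.60 and 0.36 over left-out libraries, and gsp-2 between -0.16 and 0.15 likewise, and -0.1 without the 2 yolk-rich libraries (replicate 2 of spr-5; met-2, replicate 3 of N2). The count of sperm genes wholly lower in spr-5; met-2 was 0, and 1 (spe-4) without N2 replicate 3.

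Over all records 2075 rose and 1698 fell. With the replicate block, which pairs same-numbered libraries, 2755 rose and 2374 fell. The falling count was 828 with library size only, 696 past 2-fold and 800 to 1803 over left-out libraries (800 without spr-5; met-2 replicate 3, 918 without its replicate 2, 1121 without N2 replicate 2). At an adjusted p below 0.01, 1214 rose and 665 fell, and without the pair of libraries rich in yolk transcripts 1219 rose and 556 fell. Summing gsp-3 with gsp-4 was not run, as no record was named gsp-4. Depth limits gsp-3 and spe-38, with 7 and 3 counts over all libraries.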

Other observations

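Of the 7 markers of somatic tissue, which include the adult cuticle gene bli-1, 1 was called. Over all tested records 25.9% were called in either direction, and nothing is read from the count. The intestinal GATA factor gene elt-2 stood at 52.1 ± 6.59 CPM in spr-5; met-2 and 17.9 ± 5.84 CPM in N2 (SD, n = 3), or 1.54 ± 0.24 higher on the log2 scale (SE, edgeR adjusted p = 0.00303). The cuticle collagen gene dpy-7 was uneven among libraries of both groups, highest in replicate 2 of each: spr-5; met-2 libraries had 4.75, 53.3 and 19.8 CPM, N2 libraries 2.31, 45.1 and 4.25 CPM. The sperm PDZ-domain gene smz-1, named here after its values were seen, had 7, 12 and 30 counts in spr-5; met-2 against 2, 2 and 1 counts in N2, and did not pass the count filter.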
